A study of Gallus gallus with 6 samples.

Results

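In single small yellow follicles of the laying hen, 63 genes had at least 2-fold more mRNA in follicle T4 than in T1 and in T6 than in T3, while T5 had no such excess over T2, the other follicle of the remaining hen. *Wnt4* meets the same limits and served as the model of the pattern. It was lower in T5 than in T2, which held for 19 of the 63 genes. Among the 63 genes were *SESN2*, *ELAVL4* and *KCNAB1*, with the largest ratios shared by hens 1 and 3, the peptidase gene *MMEL1*, the signaling genes *IHH* and *NR5A1*, and *CHST12*, *NDST1* and *UXS1* of sulfated sugar chain synthesis. The members were chosen on these same values: at least 1 FPKM (fragments for each kilobase of a transcript, scaled to library size) in at least 3 of the 6 follicles, a log2 ratio of (FPKM + 0.5) of at least 1 in T4 over T1 and in T6 over T3, and under 0.7 in T5 over T2. Of 17992 genes in the table, 12381 had the level and 68 of these had the pattern. The 3 on chromosome Z and 2 of 12 genes that the rule sets aside, *WNT4* among them, were left out. The 63 are gene numbers, and *SESN2* and *UQCRQ* each stand under 2 of them.

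The 6 follicles T4, T5, T6, T1, T2 and T3 were wild type chicken follicles of 6 to 8 mm from Jining Bairi hens aged 30 weeks, with no treatment, each sequenced as 1 library of poly(A) RNA from the whole follicle. By the paper, T4 and T1 came from hen 1, T5 and T2 from hen 2, and T6 and T3 from hen 3. The submitters' labels give the higher *FSHR* level to T1, T2 and T3, but the paper gives it to T4, T5 and T6. By the paper's quantitative PCR this difference was large in hen 1 only. It was small in hen 2 and smallest in hen 3. In the deposited table, *FSHR* (receptor of follicle-stimulating hormone) had 46.4 FPKM in T4 against 11.9 in T1, 18.9 in T5 against 13.1 in T2, and 27.8 in T6 against 13.9 in T3. In each pair the higher *FSHR* value was thus in the follicle that the paper gives, not in the one that the labels give. Since labels and paper conflict, each follicle was treated here as a group of its own, with 1 library, so no value has a replicate error. No test over the 3 hens was made, because these same ratios chose the members. Every ratio describes 2 follicles. Since the ratios chose the members, none of them is a finding in itself.

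A small yellow follicle has an oocyte, an avascular layer of granulosa cells, a basement membrane and a theca with vessels, fibroblasts, muscle cells and nerves. One follicle is selected from this pool to enter the hierarchy, and granulosa cells that respond to follicle-stimulating hormone take part in that step. Wnt4 is a secreted ligand, in mice required for the female gonad. In bulk RNA of a whole follicle, fewer cells of a type and less RNA per cell cannot be told apart.

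The libraries were of like depth, with 12554585 to 13933327 estimated fragments on genes. The summed level of 8 matched granulosa cell markers of 16 listed was 14382 FPKM in T4 against 2323 in T1, 6015 in T5 against 2885 in T2, and 5585 in T6 against 2230 in T3. The sum is mostly *ZP3*, a glycoprotein of the egg envelope, with 10951 FPKM in T4 against 1948 in T1, 5207 in T5 against 2547 in T2, and 4217 in T6 against 2005 in T3. Without *ZP3*, the other 7 markers summed to 3431 FPKM in T4 against 376 in T1, 809 in T5 against 338 in T2, and 1367 in T6 against 225 in T3. This second sum is mostly *INHA* (inhibin alpha) and *CARTPT* (CART prepropeptide) in T4 (1491 and 1024 FPKM), T5 (296 and 268) and T6 (794 and 175). Both sums were thus higher in all 3 hens, hen 2 included, but not every marker was. *GATA4*, a transcription factor, had a log2 ratio of -0.04 in hen 2 and -0.07 in hen 3, and *NR5A1* and *CDH2* (a cadherin) had 0.11 and 0.22 in hen 2. The markers that could be matched are those the paper had listed as changed between T1 and T4. The sum of 10 fibroblast and matrix markers of 12 was 1069 FPKM in T4 against 5671 in T1, but 4374 in T5 against 4201 in T2 and 6343 in T6 against 7192 in T3. Both endothelial markers matched, *CDH5* and *APLNR*, of 10 listed, summed to 7.30 FPKM in T4 against 35.1 in T1, 43.5 in T5 against 38.1 in T2, and 42.0 in T6 against 58.6 in T3. No marker of these 3 lists was at 0 in any follicle. The theca list had 3 of 11 markers matched. Its FPKM sum was 49.0 in T4 against 273 in T1 and 203 in T5 against 177 in T2. In T6 it was 310.2 against 301 in T3. This sum is mostly *DCN*, which is also on the fibroblast list, with 41.5 FPKM in T4 against 236.5 in T1. *GLI1* and *PDGFRA*, not on that list, had log2 ratios of -2.10 and -2.20 in T4 over T1. T4 thus stood apart in low sums of the fibroblast, endothelial and theca lists, the theca sum being no separate observation. The 2 matched nerve and Schwann cell markers went apart, with 38.1 FPKM of *MBP* (myelin basic protein) in T4 against 8.56 in T1 and 0.366 FPKM of *SOX10* in T4 against 2.99 in T1. The part of these differences in cell makeup in the results was not tested.

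**Figure D1:**
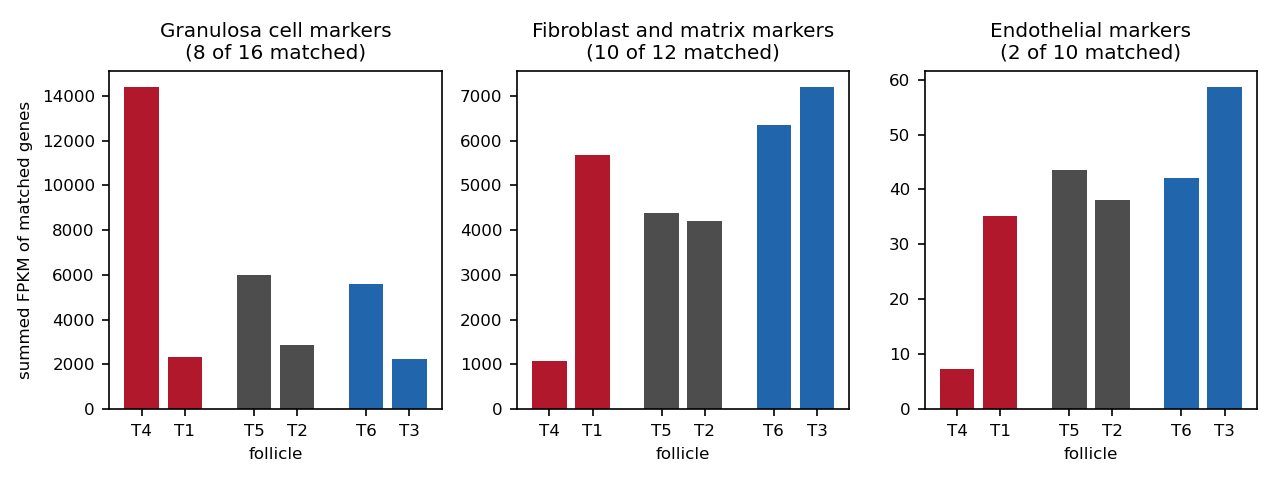
Summed FPKM of matched granulosa cell, fibroblast and matrix, and endothelial markers (bars, 1 library each) in the follicles, ordered by hen. The granulosa cell sum is 14382 in T4 against 2323 in T1, and the fibroblast and matrix sum 1069 against 5671.

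Across the 63 members the log2 ratio ran between 1.02 and 3.49 in T4 over T1, with a median of 1.72, and between 1.004 and 3.80 in T6 over T3, with a median of 1.42. In T5 over T2 it ran between -2.45 and 0.67, with a median of 0.26. The medians of all 12381 genes were 0.00, 0.02 and -0.02 in the same order. A ratio of 1 or more was found for 4.68% of all genes in T4 over T1, 2.33% in T6 over T3 and 1.21% in T5 over T2. One of -1 or less was found for 13.1%, 3.38% and 2.88% in the same order. The pattern itself was found for 0.549% of all genes. Of the 470 genes at 1 or more in T4 over T1 and under 0.7 in T5 over T2, 68 were also at 1 or more in T6 over T3, and they were 68 of the 222 genes with the corresponding condition on T6 over T3. With the hens exchanged, 24 genes were higher in T4 and T5 only and 11 in T5 and T6 only. With the sign turned, 94 genes were lower in T4 and T6 only, 22 in T4 and T5 only and 49 in T5 and T6 only. In all 3 hens alike, 34 genes had a ratio of 1 or more and 6 genes one of -1 or less.

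The level of the members in each follicle shows which of the 2 follicles of a hen carried the ratio. Their median FPKM was 50.8 in T4 against 13.3 in T1, 17.3 in T5 against 14.8 in T2, and 27.2 in T6 against 8.63 in T3. T4 was the highest of the 6 follicles for 53 of the 63 members (33% of all genes had T4 highest), and T6 for 9 (17.5%). Both T4 and T6 were above the other 4 follicles for 52 members (12.3% of all genes), so that most members had no overlap between these follicles and the rest. T6 was above T1, T2 and T5 for 53 members (39.2% of all genes). T2 was above T1 and T3 for 31 (27%), and T3 was below T1 and T2 for 41 (41.7%). T3 was the lowest of the 6 follicles for 38 members (21.5% of all genes), and for 14 members it had under 0.5 times the FPKM of the lower of T1 and T2 (3.08% of all genes). For these 14, *IHH*, *PLA2G3*, *MAP7D2*, *ELAVL4*, *PAK1* and *YWHAH* among them, the ratio of hen 3 rests in part on a low T3. The choice of members fixes part of these shares.

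**Figure D2:**
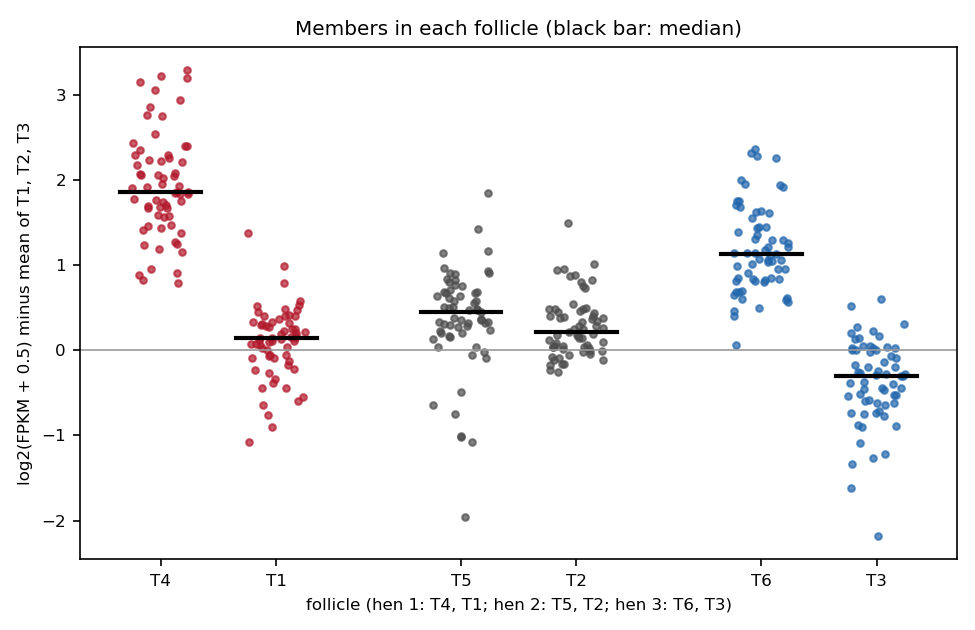
Level of the 63 members in each follicle, as log2(FPKM + 0.5) minus the mean of T1, T2 and T3 of that gene (points, 1 per member), with medians as black bars. The medians are 1.86 in T4 against 0.14 in T1, 0.45 in T5 against 0.21 in T2, and 1.13 in T6 against -0.30 in T3.

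T5 was not simply at the level of T2. It was within the range of T1, T2 and T3 for 20 members (53.7% of all genes), above all 3 for 36 members (17.8%) and below T4 and T6 for 54 (37.3%). The choice of members fixes part of these shares too. The log2 ratio T5 over T2 was 0.5 or more for 17 members (6.52% of all genes) and below 0 for 19 (52.3% of all genes). T4 over T1 was larger than T6 over T3 for 48 (46.9%). Members just under the limit of 0.7, such as *FLVCR2* at 0.67 and *CHST12* at 0.66, therefore differ little from genes just above it, such as *SEMA3A* at 0.76 and *CSPG5* at 0.78. At the limit of T6 over T3, *TMEM117* (1.01) and *FBXL21* (1.01) were inside and *ATP1B1* (0.98) and *BET1* (0.96) outside. At that of T4 over T1, *CCDC92* (1.14) and *HERPUD1* (1.26) were the named members nearest to it, and gene330 (0.99) and gene10762 (0.95), 2 genes without a name here, were just outside.

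Counting error was small for most members and large for a few. The largest of a member's 6 estimated fragment numbers had a median of 1097. The 95% exact (Clopper-Pearson) interval of T5 over T2 lay wholly below those of T4 over T1 and T6 over T3 for 47 members (12% of all genes). These intervals were computed from normalized counts and cover counting error only, not the difference between follicles of a hen. The choice of members fixes much of the order of the ratios, so these 47 are no separate support for the pattern. In every follicle, 9 of the 63 members had under 50 fragments, a larger share than the 843 of all 12381 genes. Of these 9 members, 8 have no name here, and the ratios of all 9 are weakly determined. *ATP8A2* is the named one, with 2.10 FPKM in T4 against 0.197 in T1, 1.86 in T5 against 1.12 in T2, and 1.90 in T6 against 0.105 in T3.

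**Figure D3:**
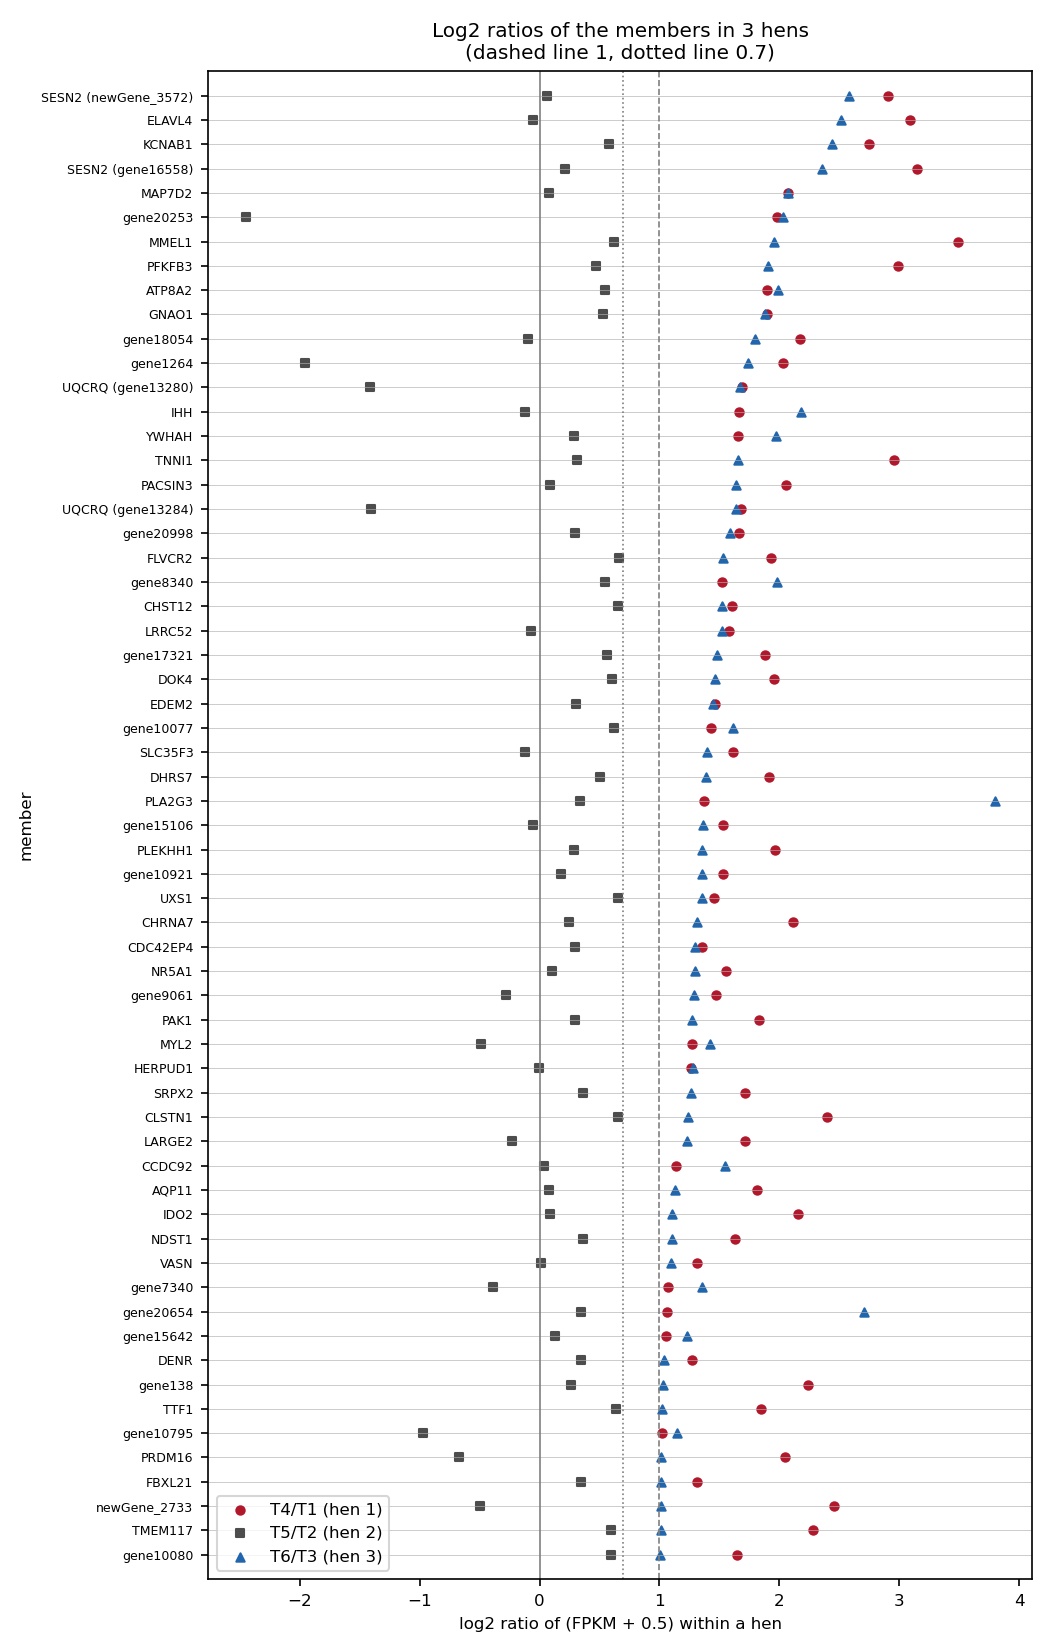
Log2 ratios of (FPKM + 0.5) within hen 1 (circles), hen 2 (squares) and hen 3 (triangles) for 61 of the 63 members, ordered by the smaller of the ratios of hens 1 and 3. *SESN2* and *ELAVL4* stand at the top, and 4 members lie at -1 or less in hen 2.

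The largest ratios shared by hens 1 and 3 were those of *SESN2*, *ELAVL4* and *KCNAB1*. *SESN2* encodes a stress-induced protein that restrains the kinase complex mTORC1 when leucine or other nutrients are short. It had 282 FPKM in T4 against 31.4 in T1, 33.6 in T5 against 28.9 in T2, and 158 in T6 against 30.3 in T3 (gene16558). The 4 follicles outside T4 and T6 lay within a narrow range, and the log2 ratios were 3.15, 0.21 and 2.36 in hens 1, 2 and 3. The exact counting intervals were 2.99 to 3.33 for T4 over T1, -0.06 to 0.41 for T5 over T2 and 2.17 to 2.53 for T6 over T3. A second transcript model, also annotated as sestrin-2, lies 128 bases upstream on the same strand of chromosome 23 (2053286 to 2056583, next to 2056711 to 2064299). It had 64.3 FPKM in T4 against 8.17 in T1, 6.61 in T5 against 6.31 in T2, and 33.3 in T6 against 5.13 in T3. Both models thus had one pattern, and whether they are pieces of 1 gene was not tested, so they do not count as separate observations.

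*ELAVL4*, an RNA-binding protein best known from neurons, had 14.0 FPKM in T4 against 1.21 in T1, 2.39 in T5 against 2.50 in T2, and 3.15 in T6 against 0.141 in T3. T3 rests on about 8 fragments, so that the ratio of hen 3 is imprecise. It was 2.51 with a pseudocount of 0.5 FPKM and 3.76 with 0.1, against a counting interval of 3.13 to 5.39 without a pseudocount. In hen 2 the direction of *ELAVL4* depends on the measure, with a log2 ratio of -0.05 on FPKM and 0.64 on normalized counts (exact counting interval 0.12 to 1.16). *KCNAB1*, an accessory subunit of voltage-gated potassium channels, had 53.3 FPKM in T4 against 7.51 in T1, 8.79 in T5 against 5.71 in T2, and 23.6 in T6 against 3.95 in T3. Its T5 over T2 was 0.58 on FPKM and 0.82 on normalized counts, which is above the limit. T5 was the highest follicle after T4 and T6 for this gene.

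*MMEL1*, a membrane metallopeptidase related to neprilysin that cleaves small peptides, had the largest T4 over T1 of all members. It had 43.0 FPKM in T4 against 3.38 in T1, 12.2 in T5 against 7.76 in T2, and 21.4 in T6 against 5.15 in T3. The log2 ratios were 3.49, 0.62 and 1.95 in hens 1, 2 and 3, so that the order among the hens was clear while T5 was also above T2. *PFKFB3*, which makes the sugar bisphosphate that activates glycolysis, had 91.9 FPKM in T4 against 11.1 in T1, 17.3 in T5 against 12.3 in T2, and 33.7 in T6 against 8.63 in T3. T4 was far above T6 for this gene, and T5 somewhat above T2. *TNNI1*, the slow skeletal muscle form of troponin I, was low in all follicles, with 6.96 FPKM in T4 against 0.463 in T1, 1.31 in T5 against 0.953 in T2, and 6.5 in T6 against 1.72 in T3.

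**Figure D4:**
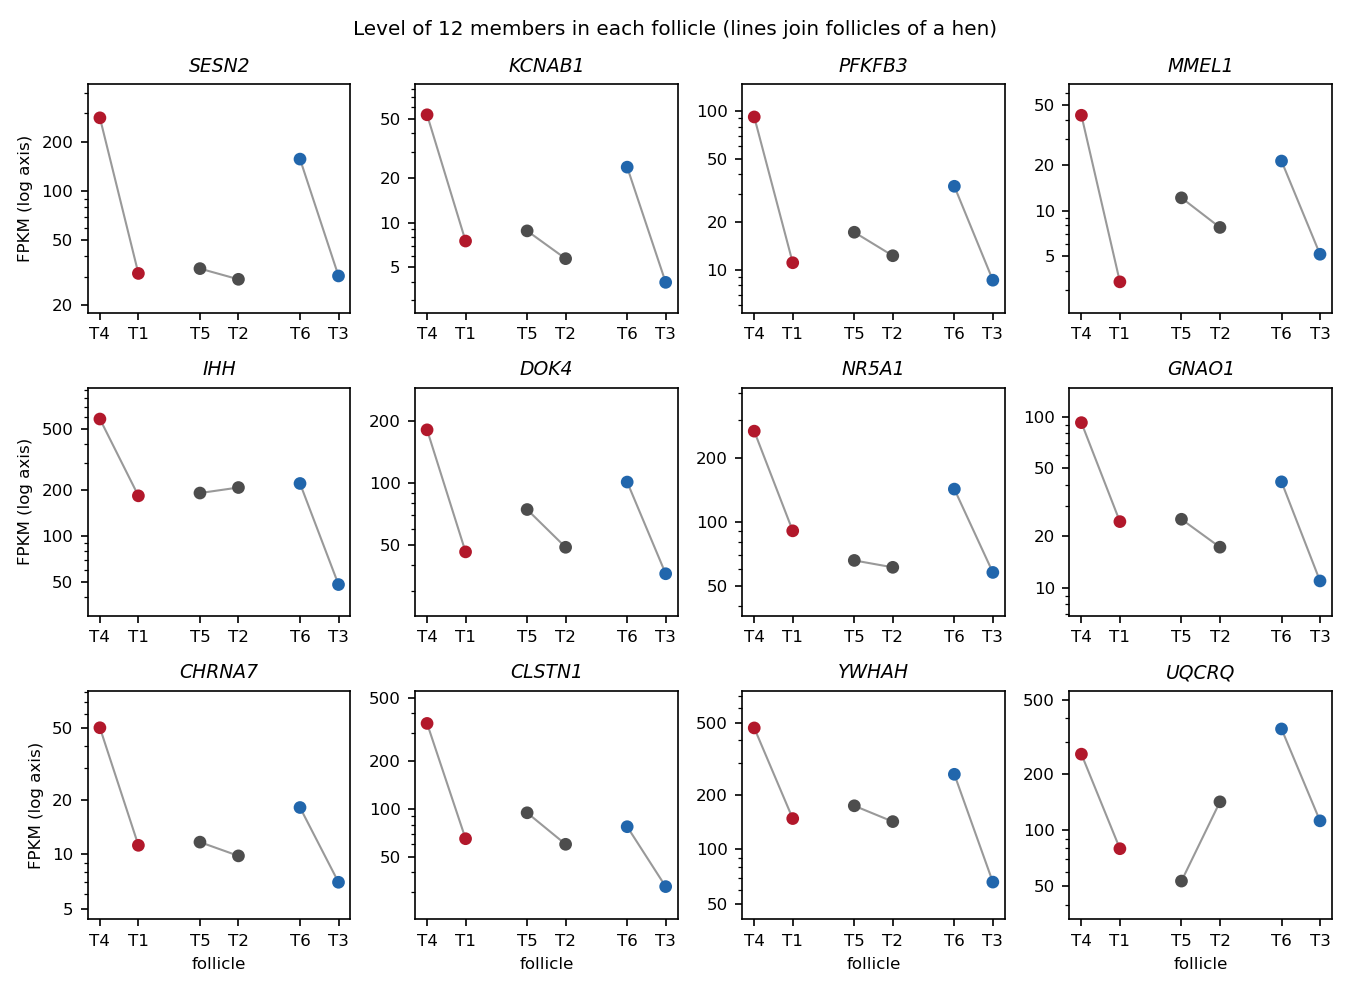
FPKM of 12 members in each follicle on a log axis, with lines joining the follicles of a hen (red hen 1, grey hen 2, blue hen 3); *SESN2* is gene16558 and *UQCRQ* gene13284. *SESN2* has 282 FPKM in T4 and 158 in T6 and 28.9 to 33.6 in the other 4 follicles. T5 is below T2 for *UQCRQ* (53.4 against 142) and, by less, for *IHH* (191 against 208).

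Names were to be had only for genes that the paper had listed as changed between T1 and T4, so a list's counts are set by that choice in part. Of the 344 named genes with the level, 70.9% had a log2 ratio of 1 or more in T4 over T1, 9.59% in T5 over T2 and 21.2% in T6 over T3. Of all 580 genes at 1 or more in T4 over T1, named or not, 11.7% were also at 1 or more in T5 over T2 and 19.5% in T6 over T3. The counts of the lists stand beside these shares, not beside those of all genes, and nothing particular to a list is read from them.

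Of the secreted signals and their regulators, *IHH* had the highest level in T4 of all members. Indian hedgehog is a secreted ligand, which in mouse ovaries comes from granulosa cells and acts on theca cells. *IHH* (chromosome 7, 21791114 to 21807756) had 581 FPKM in T4 against 183 in T1, 191 in T5 against 208 in T2, and 221 in T6 against 48.4 in T3. T6 was thus barely above T1, T2 and T5, and the large ratio of hen 3, 2.18, came with a low T3. The hedgehog target *GLI1* had 2.41 FPKM in T4 against 11.9 in T1, 14.0 in T5 against 14.0 in T2, and 15.4 in T6 against 13 in T3. *GLI3*, a factor of the same pathway, had 0.999 FPKM in T4 against 1.91 in T1, 2.93 in T5 against 2.56 in T2, and 1.25 in T6 against 2.73 in T3. Neither followed the pattern of the ligand. *GLI1* is also 1 of the 3 matched theca markers, whose median log2 ratio in T4 over T1 was -2.20. *GLIS1*, a related zinc finger gene, was the remaining one of the 4 matched genes on the hedgehog list of 12. Its log2 ratio was 2.67 in hen 1, 1.34 in hen 2 and 0.80 in hen 3.

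*VASN* encodes a membrane protein that binds transforming growth factor beta. It had 185 FPKM in T4 against 74.0 in T1, 72.4 in T5 against 71.8 in T2, and 118 in T6 against 54.7 in T3. The list for transforming growth factor beta, bone morphogenetic protein and activin signaling had 12 matched genes of 44 listed. Of those 12 genes, 11 had a log2 ratio of 1 or more in T4 over T1, 2 in T5 over T2 and 4 in T6 over T3, while 1 was at -1 or less in T4 over T1 and 1 in T6 over T3.

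*NR5A1* (steroidogenic factor 1) is a nuclear receptor that switches on genes of steroid synthesis. It had 266 FPKM in T4 against 90.5 in T1, 65.7 in T5 against 61.0 in T2, and 142 in T6 against 57.7 in T3, with more fragments in T4 (10174) than all but 1 other member. T5 was at the level of T2 and T3. It was the 1 member among 6 matched genes of the list for steroid synthesis and its regulators (of 19). All 6 reached a ratio of 1 in T4 over T1, none in T5 over T2 and only *NR5A1* itself in T6 over T3. *NR5A1* is also on the granulosa cell marker list, of which 8 of 8 matched genes reached this ratio in hen 1, 4 in hen 2 and 5 in hen 3. *WNT4*, the model of the pattern and no member, had 965 FPKM in T4 against 252 in T1, 164 in T5 against 261 in T2, and 475 in T6 against 119 in T3. For *WNT4* too, T3 was under 0.5 times the lower of T1 and T2, so its ratio of hen 3 rests in part on a low T3.

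*CHRNA7*, *GNAO1* and *DOK4* belong to receptor signaling. *CHRNA7*, a subunit of the nicotinic acetylcholine receptor, had 50.4 FPKM in T4 against 11.2 in T1, 11.7 in T5 against 9.81 in T2, and 18.2 in T6 against 7.0 in T3. *GNAO1*, the alpha subunit of an inhibitory G protein, had 92.3 FPKM in T4 against 24.4 in T1, 25.1 in T5 against 17.3 in T2, and 41.6 in T6 against 11 in T3. *DOK4*, a docking protein of tyrosine kinases, had 181 FPKM in T4 against 46.5 in T1, 74.6 in T5 against 48.9 in T2, and 101 in T6 against 36.4 in T3. T5 was above T1, T2 and T3 for each of these genes, but only slightly above T1 for *CHRNA7* and *GNAO1*.

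The list for sulfation and glycosaminoglycan synthesis held 3 members. Sulfated chains of cell surface and matrix proteoglycans are started with xylose and then sulfated. *UXS1*, which makes the activated xylose, had 53.2 FPKM in T4 against 19.1 in T1, 29.3 in T5 against 18.5 in T2, and 32.2 in T6 against 12.3 in T3. *CHST12*, a chondroitin sulfotransferase, had 49.96 FPKM in T4 against 16.1 in T1, 25.99 in T5 against 16.3 in T2, and 39.7 in T6 against 13.5 in T3. *NDST1*, which starts the sulfation of heparan sulfate, had 98.1 FPKM in T4 against 31.3 in T1, 32.6 in T5 against 25.2 in T2, and 44.6 in T6 against 20.5 in T3. For all 3 the T5 over T2 was positive (0.65, 0.66 and 0.36), so that hen 2 went the same way to a smaller extent. With median of ratios scaling, *UXS1* (0.71), *CHST12* (0.71) and *CLSTN1* (0.71) passed the limit in hen 2 and were no longer members. *NDST1* left on normalized counts per kilobase scaled to the same total in each library. Of 14 matched genes on this list (of 19), 13 had a ratio of 1 or more in hen 1, 2 in hen 2 and 6 in hen 3, and none had -1 or less in any hen. *LARGE2*, a glycosyltransferase of dystroglycan that is not on the list, differed from them in hen 2, with 70.0 FPKM in T4 against 21.0 in T1, 19.8 in T5 against 23.2 in T2, and 34.8 in T6 against 14.6 in T3. A member annotated only as a nucleotide sugar transporter, gene10921, had 121 FPKM in T4 against 41.5 in T1, 42.6 in T5 against 37.5 in T2, and 59.5 in T6 against 22.9 in T3.

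Ion channels and transporters were among the members. *AQP11*, a water channel of internal membranes, had 48.0 FPKM in T4 against 13.3 in T1, 19.6 in T5 against 18.6 in T2, and 19.98 in T6 against 8.87 in T3. T6, T5 and T2 were thus nearly level and T4 alone stood out. *SLC35F3*, a transporter of the nucleotide sugar carrier family, had 43.9 FPKM in T4 against 14.0 in T1, 12.9 in T5 against 14.0 in T2, and 14.5 in T6 against 5.22 in T3, again with a low T3. *FLVCR2*, a membrane transporter of the major facilitator family, was lower, between 1.57 and 9.31 FPKM. A multivitamin transporter-like gene (gene20998) had 508 FPKM in T4 against 160.0 in T1, 188 in T5 against 153 in T2, and 296 in T6 against 98.0 in T3. With *KCNAB1* and *CHRNA7*, *AQP11* made 3 members among 12 matched genes of the ion channel list. Of these 12, 9 reached a ratio of 1 in hen 1, 1 in hen 2 and 4 in hen 3, and 1 gene each was at -1 or less in hens 1 and 3. The solute carrier list held *SLC35F3* and *FLVCR2* among 16 matched genes, 14 of which reached 1 in hen 1, 1 in hen 2 and 5 in hen 3. On that list *SLC2A9* (-1.99) and *SLC35E4* (-1.93) were at -1 or less in hen 3. The list for neurotransmitters and peptide hormones held *CHRNA7* alone among 14 matched genes, with 13, 5 and 7 at 1 or more in hens 1, 2 and 3 and 1 at -1 or less in each hen.

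Of the cytoskeletal and membrane shape genes, *PAK1*, a kinase activated by Cdc42 and Rac, had 59.5 FPKM in T4 against 16.4 in T1, 19.4 in T5 against 15.7 in T2, and 15.6 in T6 against 6.17 in T3. *CDC42EP4*, a binding partner of Cdc42, had 113 FPKM in T4 against 44.1 in T1, 41.3 in T5 against 33.5 in T2, and 59.8 in T6 against 24.1 in T3. In *PAK1* T6 was no higher than T1, T2 and T5, whereas in *CDC42EP4* it was above them. *PACSIN3*, which bends membranes, had 173 FPKM in T4 against 41.2 in T1, 34.3 in T5 against 32.3 in T2, and 59.7 in T6 against 18.8 in T3. *MAP7D2*, a microtubule-associated protein, had 71.1 FPKM in T4 against 16.5 in T1, 18 in T5 against 17 in T2, and 13 in T6 against 2.71 in T3. T6 was thus below T1, T2 and T5, and T3 was the lowest follicle.

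*YWHAH*, a 14-3-3 protein that binds phosphorylated partners, had 469 FPKM in T4 against 148 in T1, 174 in T5 against 142 in T2, and 259.9 in T6 against 66.1 in T3. *CLSTN1*, a transmembrane cargo adaptor of kinesin, had 345 FPKM in T4 against 65.1 in T1, 94.8 in T5 against 60.1 in T2, and 77.5 in T6 against 32.6 in T3. Here T5 was above T6, and T4 was 5.27-fold above T1 on the (FPKM + 0.5) scale. *DHRS7*, a short-chain dehydrogenase, had 256 FPKM in T4 against 67.8 in T1, 104 in T5 against 73.3 in T2, and 185 in T6 against 70.3 in T3. It was on the retinoid list, where 5 of 5 matched genes reached a ratio of 1 in hen 1, 1 in hen 2 and 2 in hen 3. The secreted phospholipase *PLA2G3* had the largest ratio of hen 3, 3.80, with 103 FPKM in T6 against 6.95 in T3. Its other values were 226 in T4 against 86.9 in T1 and 73.8 in T5 against 58.5 in T2, so that T3 was the follicle that stood apart.

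The endoplasmic reticulum gene *HERPUD1*, which takes part in the removal of misfolded proteins, was the member with hen 2 closest to no difference. It had 79.3 FPKM in T4 against 32.7 in T1, 28.3 in T5 against 28.4 in T2, and 73.0 in T6 against 29.9 in T3. T4 and T6 were alike and the other 4 follicles were alike. *EDEM2*, of the same process, had 86.0 FPKM in T4 against 30.9 in T1, 44.4 in T5 against 35.8 in T2, and 40.9 in T6 against 14.6 in T3, so that T5 was above T6.

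Among the named members lowest in hen 2 were *UQCRQ*, *LARGE2*, *PRDM16* and *MYL2*. *MYL2*, a myosin light chain of heart muscle, had 49.98 FPKM in T4 against 20.5 in T1, 5.78 in T5 against 8.32 in T2, and 16.5 in T6 against 5.85 in T3, so that T6 was below T1. *PRDM16*, a transcription regulator, had 12.3 FPKM in T4 against 2.6 in T1, 1.28 in T5 against 2.33 in T2, and 4.37 in T6 against 1.91 in T3. Its T5 over T2 was -0.67 on FPKM but 0.29 on normalized counts (exact counting interval -0.31 to 0.89). It was 0.15 on these counts per kilobase scaled to the same library total, so that its direction in hen 2 depends on the measure. The size in the other hens depends on it too. T4 over T1 was 2.04 on FPKM and 3.33 on normalized counts (interval 2.95 to 3.73). T6 over T3 was 1.01 and 1.90 (interval 1.48 to 2.35). It was the 1 member among 21 matched genes of the list for transcription factors and chromatin, with 17, 2 and 2 at 1 or more in hens 1, 2 and 3 and 1, 0 and 2 at -1 or less.

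A log2 ratio of -1 or less in T5 over T2 was found for 4 members and for 2.88% of all genes. Among the 4, gene13280 and gene13284 are both annotated as *UQCRQ*, a subunit of respiratory complex III, and lie 57663 bases apart on chromosome 13. The first had 229 FPKM in T4 against 70.9 in T1, 47.7 in T5 against 128 in T2, and 315 in T6 against 98.4 in T3. The second had 257 FPKM in T4 against 79.8 in T1, 53.4 in T5 against 142 in T2, and 351 in T6 against 113 in T3. Whether the counting split or shared reads between these copies was not tested, so each is uncertain and they count as 1 observation. The remaining pair, gene20253 and gene1264, had at most 5 and 4 estimated fragments in any follicle.

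*TTF1*, a termination factor of ribosomal RNA transcription, had 21.4 FPKM in T4 against 5.60 in T1, 9.91 in T5 against 6.21 in T2, and 13.1 in T6 against 6.16 in T3. *DENR*, a factor of translation reinitiation, had 139 FPKM in T4 against 57.3 in T1, 82.9 in T5 against 65.2 in T2, and 77.1 in T6 against 37.4 in T3. For *DENR* T5 was thus above T6. *FBXL21*, an F-box protein of ubiquitin ligases, had 13.9 FPKM in T4 and 13.7 in T6, against 5.29 in T1 and 6.56 in T3, with 7.26 in T5 against 5.62 in T2. *IDO2*, an enzyme of tryptophan breakdown, was low, with 5.78 FPKM in T4 against 0.906 in T1, 1.43 in T5 against 1.32 in T2, and 2.3 in T6 against 0.799 in T3.

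Further members encode secreted, membrane or scaffold proteins. *SRPX2*, a secreted sushi domain protein, had 74.2 FPKM in T4 against 22.3 in T1, 31.8 in T5 against 24.7 in T2, and 49.2 in T6 against 20.2 in T3. *LRRC52*, in mammals an accessory subunit of potassium channels, had 32.1 FPKM in T4 against 10.4 in T1, 10.1 in T5 against 10.6 in T2, and 17.7 in T6 against 5.85 in T3. In *LRRC52* the follicles T1, T2 and T5 were level. *TMEM117* had 56.5 FPKM in T4 against 11.2 in T1, 26.8 in T5 against 17.6 in T2, and 33.3 in T6 against 16.3 in T3. *PLEKHH1* had 28.6 FPKM in T4 against 6.96 in T1, 8.95 in T5 against 7.25 in T2, and 8.78 in T6 against 3.12 in T3, so that T6 was level with T5. *CCDC92* had 12.6 FPKM in T4 against 5.48 in T1, 6.26 in T5 against 6.09 in T2, and 8.03 in T6 against 2.43 in T3. Of the annotated genes without a symbol, gene138 (KIAA1324-like) had 37.4 FPKM in T4 against 7.54 in T1, 9.63 in T5 against 7.94 in T2, and 17.1 in T6 against 8.16 in T3. Another, gene17321, had 12.5 FPKM in T4 against 3.05 in T1, 4.24 in T5 against 2.71 in T2, and 3.24 in T6 against 0.845 in T3, and here T6 was level with T1.

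Of the 23 lists, 12 held no member. Those for Wnt signaling (7 of 40 matched), cholesterol and lipid metabolism (10 of 22), semaphorins and axon guidance (9 of 24), growth factors and neurotrophins (6 of 25), lysosomal proteins (11 of 19) and basement membrane and cell adhesion (9 of 20) had median log2 ratios of 1.26 to 1.93 in T4 over T1. Their medians were -0.03 to 0.40 in T5 over T2 and 0.03 to 0.44 in T6 over T3. *WNT4*, 1 of the 7 matched Wnt genes, has the pattern and is no member only because the rule sets it aside. The lists for nerve and Schwann cells (2 of 6), smooth muscle (1 of 7) and blood and immune cells (1 of 10) held no member either, nor did those for theca, fibroblast and endothelial cells.

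The 11 members with no annotation were gene20253, gene18054, gene1264, gene8340, gene15106, gene9061, gene7340, gene20654, gene15642, gene10795 and a transcript model inside *MAF*. The highest of them, gene18054, had 389 FPKM in T4 against 85.8 in T1, 195 in T5 against 208 in T2, and 803 in T6 against 231 in T3. This transcript has 168 bases, and its 803 FPKM in T6 rest on about 21 fragments.

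Several members lay side by side. Within 100000 bases, 14 of the 63 had another member (22.2%), against 2.86% of all genes, a count that includes the paired models of *SESN2* and *UQCRQ*. *AQP11* and *PAK1* lie 22473 bases apart on opposite strands of chromosome 1. *DOK4* and *HERPUD1* lie 56290 bases apart on chromosome 11, and *LARGE2* and gene8340 15665 bases apart on chromosome 5.

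Another such pair, gene10077 and gene10080, stands around *INHA*, the inhibin alpha subunit, on chromosome 7. The first, annotated as gap junction gamma-1-like, had 25.3 FPKM in T4 against 9.08 in T1, 12.2 in T5 against 7.76 in T2, and 31.1 in T6 against 9.82 in T3. The second, annotated as a TMEM198-B-like membrane protein, had 32.9 FPKM in T4 against 10.1 in T1, 13.8 in T5 against 8.98 in T2, and 27.2 in T6 against 13.3 in T3. *INHA*, between them, had 1491 FPKM in T4 against 47.0 in T1, 296 in T5 against 54.4 in T2, and 794 in T6 against 10.1 in T3. The ratios of hen 2 were largest for *INHA* (2.44) and gene10079 (1.82), and just under the limit for the members around them (0.62 and 0.60). The neighbour gene10076 had -0.25 in hen 2. On the opposite strand, gene10080 overlaps gene10079 between positions 21569881 and 21571299. The sources used here do not say whether strand was used in counting, so reads in that stretch cannot be told apart.

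**Figure D5:**
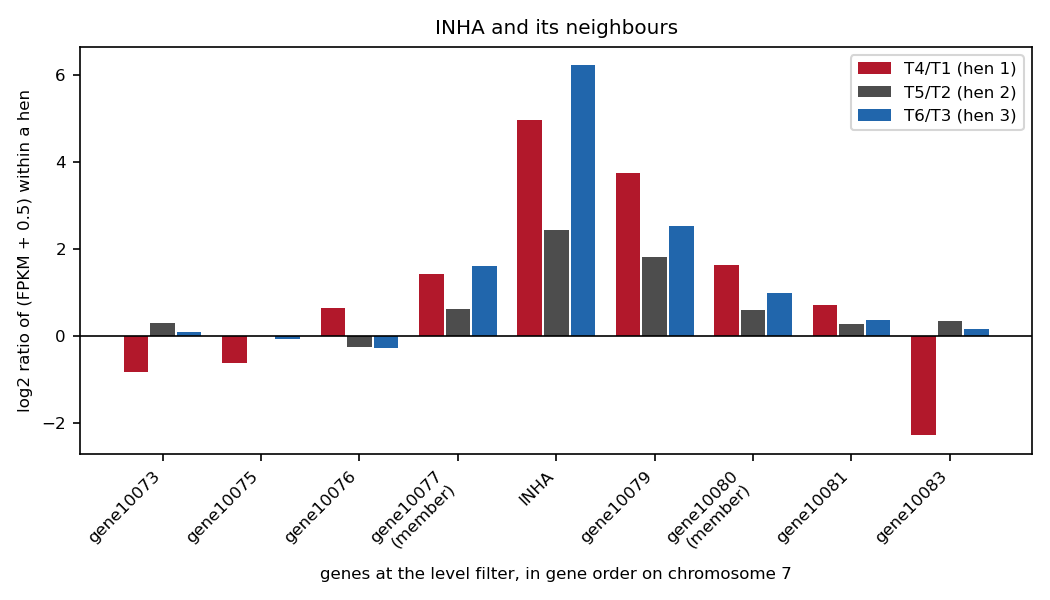
Log2 ratios of (FPKM + 0.5) within hens 1, 2 and 3 (bars) for *INHA* and the neighbouring genes at the level filter, in gene order. *INHA* is highest, with 4.97, 2.44 and 6.23 in hens 1, 2 and 3, and the members gene10077 and gene10080 are lower.

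Overlap with another gene touched 14 members, among them *SRPX2*, *PACSIN3*, *IHH*, *LRRC52*, *DOK4*, *VASN*, *DENR*, *PRDM16* and *CLSTN1*. No share over all genes stands beside this count, so nothing particular to the members is read from it. The neighbours that *SRPX2* and *PACSIN3* overlap were also higher in T4 (log2 ratios 1.29 and 1.15 over T1). Those of *VASN*, *IHH*, *LRRC52* and *DOK4* had 0.98, 0.78, 0.74 and 0.64. Those of *CLSTN1*, *DENR* and *PRDM16* had 0.11, 0.01 and -1.50. The neighbour of *LRRC52*, on the same strand, had 659 FPKM in T4. The unannotated model on the strand of *MAF* lies within that gene, and *MAF* itself had 119 FPKM in T4 against 32.5 in T1, 43.2 in T5 against 30.3 in T2, and 80.4 in T6 against 55.7 in T3.

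The members had shorter transcripts than other genes, with a median of 1946 bases against 2979, and 9 of 63 (14.3%) were under 500 bases, against 4.81% of all genes. FPKM of very short transcripts rest on few fragments and on the length correction. Another measure was normalized counts per kilobase, scaled to the same total in each library. On it, with 0.5 added as for FPKM, 44 of the 63 remained and 3 other genes came in. *KCNAB1*, *NDST1*, *VASN*, *DENR*, *TTF1*, *FBXL21*, *IDO2* and *TMEM117* were the named ones that left. On that measure *NDST1* and *VASN* had 0.986 and 0.996 in T6 over T3, just under the limit, and *FBXL21* had 0.55. Normalized counts without this scaling gave 1.12, 1.12 and 0.71 for these genes, so *NDST1* and *VASN* were above the limit there. The members with a chromosome in the table lay on 20 chromosomes, 9 of the 63 (14.3%) on chromosome 1, which held 1488 of the 12381 genes. Chromosome 5 held 6 members (9.52%, against 5.76% of all genes) and chromosome 15 held 5 (7.94%, against 2.19%).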

How the data were processed

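The authors sequenced poly(A) RNA of 6 single follicles, 1 library each, and deposited 1 table with FPKM and a normalized count, a signal made by the authors by dividing the estimated fragments of a gene by 1 factor per library. The submitters' notes name Bowtie 0.12.2 and Cufflinks. Sources for the genome build conflict, so positions are printed as the file has them and no build is named. The value of 1 fragment in a library was taken as its most frequent normalized count near 1. Divided by this value, a normalized count of up to 30 fragments was whole (tolerance 0.02) for 89.9% to 90.4% of genes. This value also gave the fragment numbers.

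The members and lists were chosen with earlier results of these data known. Ratios are log2((FPKM + 0.5)/(FPKM + 0.5)) within a hen, and hens come from the paper. No test was run, since these ratios chose the members; the planned promoter motifs were not analysed here and no sequence table was used. Names come from the paper's supplementary list of T1 against T4, matched to RefSeq symbols. There were 367 names, 77 from the description alone, and 1 more was dropped for its chromosome. A further 10 gene numbers share a name with another number, those of *SESN2* and *UQCRQ* among them. These kept the name as a label but were left out of the lists and of the shares of named genes. Of 404 symbols on 23 lists, 186 were matched. Named genes were the members on a list and the 15 with the largest smaller ratio of hens 1 and 3 at 5 FPKM or more. Also named were the 6 lowest in T5 over T2, the 6 highest in T4, *WNT4* and *FSHR*. The 2 nearest to each limit on either side were named too, genes that the rule sets aside not counted. Other names complete a list or a neighbourhood and were chosen after their values were seen. The deposited table has 1 further column of values that names no sample and was not used. Tools were pandas 2.3.3, numpy 2.4.6 and scipy 1.17.1 under Python 3.11.15, with plots from matplotlib 3.10.9, and the script was tested on simulated data. The alternatives were other pseudocounts, level filters, limits, a median of ratios scaling and normalized counts per kilobase. The last were scaled to the same total in each library, while the counting intervals use normalized counts without that scaling. Some items, among them 2 members and 1 list, are not reported here.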

Additional observations from a re-analysis of the deposited data

Results flagged for a closer look

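In 4 members T4 and T6 were 2-fold higher or more and T5 was 2-fold lower or more, each against the other follicle of the hen. The difference between hens was not tested, since each hen has 1 pair of follicles. Both gene numbers annotated as *UQCRQ* had a T5 over T2 of -1.41 (gene13280) and -1.41 (gene13284). They had similar values in each of the 6 follicles and count as 1 observation. The unannotated gene20253 had -2.45 and gene1264 had -1.95, with at most 5 and 4 estimated fragments in any follicle.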

How the results depend on the processing

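No paired analysis was possible because the members were chosen on the ratios within the 3 hens, so that a paired test over the hens would test the choice itself. The number of members was 63, and 71 with a pseudocount of 0.1, 53 with 1, 83 without the level filter, 49 with a filter of 5 FPKM, 50 with median of ratios scaling, 47 on normalized counts per kilobase and 72 with a limit of 1 in hen 2. With a limit of 2 in hens 1 and 3 it was 5, with median log2 ratios of 2.90 in hen 1 and 2.44 in hen 3. These were *ELAVL4*, *KCNAB1*, *MAP7D2* and both models of *SESN2*, which do not count as separate observations. With a limit of 0 in hen 2 it was 19, with a median of -0.28 in hen 2. Of 504 values of named genes under the alternatives, 466 moved by less than their counting error, 38 moved by more, 34 of these on normalized counts, and none with a ratio of 1 or more in size changed sign. With each follicle treated as a group of its own, no replicate could be left out. Hen 1 has a follicle, T4, that stood apart in cell type markers, so a ratio in T4 over T1 and cell makeup cannot be told apart. The markers that could be matched were those the paper had listed as changed between T1 and T4. The granulosa cell marker sum without *ZP3* was also higher in T6 than in T3 (1367 against 225 FPKM). It was 809 FPKM in T5 against 338 in T2. The ratios of hens 2 and 3 cannot be told apart from differences in cell makeup either.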
